A study of Mus musculus with 18 samples.

Results

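The HoxD cluster is the row of homeobox genes Hoxd1, Hoxd3, Hoxd4, Hoxd8, Hoxd9, Hoxd10, Hoxd11, Hoxd12 and Hoxd13 on mouse chromosome 2. The members were chosen by gene symbol, whatever their values, and all 9 had a row among the 21995 genes of the count table. In GRCm38 (GENCODE M21 annotation) they lie on the plus strand of chromosome 2 between 74668310 and 74765142, a span of 96.8 kb. Hoxd13 stands at the low-coordinate end and Hoxd1 at the high-coordinate end, so transcription runs from the Hoxd13 side towards Hoxd1.

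Hox genes encode transcription factors that give cells their position along the body axes. In the embryo, genes at the Hoxd1 end of a cluster (called 3′ or anterior) are usually switched on earlier and nearer the head than genes at the Hoxd13 end (5′ or posterior), and the posterior HoxD genes are known for patterning limbs, digits and the genital and urinary tract. In embryonic stem cells (ESCs) the clusters are held silent by Polycomb complexes, and retinoic acid acts through nuclear receptors bound near the anterior genes.

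Total RNA was sequenced from mouse ESCs of a parental line (also labelled WT) and of a line labelled Oct1_cKO (also labelled KO), here called cKO. Oct1 is the POU-domain transcription factor encoded by Pou2f1. Cells were taken at day 0 and after 2 and 6 days of differentiation, which was done on 0.01% gelatin in DMEM with retinoic acid at 1.5 µg/ml, non-essential amino acids, glutamine and antibiotics. The groups were parental day 0, parental day 2, parental day 6, cKO day 0, cKO day 2 and cKO day 6, with 3 libraries in each and 18 in all. The labels do not say what drives the deletion, which part of Pou2f1 it removes, whether a line is 1 clone, or whether each library had a culture of its own. P-values therefore reflect only how far these libraries vary, and that variation could be technical.

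Libraries held 13694126 to 19296966 counts. Pou2f1 read 61.1 to 135 CPM (read counts scaled to a common library total by the TMM method) in the parental libraries and 36.0 to 88.2 CPM in the cKO libraries, and it was lower in cKO on each day without reaching 0. No 2 libraries were alike within sampling noise, and cKO day 0 replicate 3 stood apart from the other cKO day 0 libraries (chi-square per degree of freedom 11.6 or more, against 1.24 to 7.47 for the other pairs within groups). All 8 listed pluripotency markers were detected at day 0, where they summed to 4813 to 4864 CPM in parental and 5603 to 5999 CPM in cKO libraries. Fibroblast markers, listed because such cells can serve as feeders, summed at day 0 to 1171 to 1238 CPM in parental and 363 to 376 CPM in cKO libraries. Fewer cells of a type and less RNA per cell cannot be told apart in such bulk samples.

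The members' start regions differ in base composition. Sequences of the 250 bases before each start were taken from RefSeq (GRCm38.p6), in which all 9 genes matched and Hoxd11 had a pair of starts, so that 10 windows were read. Hoxd1, Hoxd4, Hoxd8 and Hoxd13 are shown because the results turn on them: Hoxd1 and Hoxd13 are the ends of the cluster, and Hoxd4 and Hoxd8 carried large differences between the lines at day 6. Hoxd3 also carried a large difference at day 6 and is not shown. They lie on the plus strand at chr2:74762730-74762979 (Hoxd1), chr2:74721728-74721977 (Hoxd4), chr2:74704365-74704614 (Hoxd8) and chr2:74667975-74668224 (Hoxd13). Capitals mark the letters AGGTCA or AGTTCA, the cores that retinoic acid receptors bind, on either strand, where TGACCT and TGAACT are the same letters read from the other strand.
Hoxd1: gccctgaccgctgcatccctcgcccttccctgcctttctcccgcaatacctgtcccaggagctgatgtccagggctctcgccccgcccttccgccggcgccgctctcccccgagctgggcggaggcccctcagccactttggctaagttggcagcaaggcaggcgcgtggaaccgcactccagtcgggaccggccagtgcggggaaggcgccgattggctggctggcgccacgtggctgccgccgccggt
Hoxd4: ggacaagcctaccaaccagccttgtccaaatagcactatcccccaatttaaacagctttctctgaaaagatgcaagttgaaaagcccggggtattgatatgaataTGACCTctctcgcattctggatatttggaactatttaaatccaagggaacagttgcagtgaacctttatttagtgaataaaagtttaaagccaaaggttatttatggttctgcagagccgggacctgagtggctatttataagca
Hoxd8: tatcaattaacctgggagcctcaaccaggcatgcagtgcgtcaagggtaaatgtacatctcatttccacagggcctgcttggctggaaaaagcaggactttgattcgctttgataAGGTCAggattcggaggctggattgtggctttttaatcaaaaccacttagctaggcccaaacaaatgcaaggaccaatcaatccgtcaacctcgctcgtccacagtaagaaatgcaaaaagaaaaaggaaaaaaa
Hoxd13: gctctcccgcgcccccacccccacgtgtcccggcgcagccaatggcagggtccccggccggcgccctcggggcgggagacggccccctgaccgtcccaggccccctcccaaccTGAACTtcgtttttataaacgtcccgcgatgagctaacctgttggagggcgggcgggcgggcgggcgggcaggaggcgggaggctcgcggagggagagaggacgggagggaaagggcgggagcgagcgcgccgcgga

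The windows of Hoxd1 and Hoxd13 were rich in G and C (71.6% and 74.4%), while those of Hoxd4 and Hoxd8 held 40.4% and 44.4%. Those of Hoxd3, Hoxd9, Hoxd10 and Hoxd12 held 49.2%, 65.2%, 65.6% and 55.6%, and those of Hoxd11 44.8% and 60.4%. The median was 52.4% over the 32851 promoter windows of that length. AGGTCA was found in 4 of the 10 windows (Hoxd3, Hoxd4, Hoxd8 and Hoxd10) and in 14% of all windows. It lay 145 to 140 bases before the Hoxd4 start and 135 to 130 bases before the Hoxd8 start. AGTTCA was found in 1 of the 10, that of Hoxd13, and in 11.8% of all windows. The octamer ATGCAAAT, the letters known for POU factors such as Oct1, was in 0 of the 10 and in 1.6% of all windows. TGACAG, the core that Meis and Prep cofactors bind, was in 0 of the 10 and in 15.9% of all windows. These matches describe letters only. The RefSeq start of Hoxd4 lies within an intron of a longer annotated Hoxd4 transcript.

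Annotation limits what can be said of Hoxd3 and Hoxd4. Of their exon bases, 62.8% and 52.3% are shared with other genes, including each other and the read-through gene Gm28230, and the labels do not give how such reads were counted. The corresponding share was 10.8% in Hoxd11 and 5.7% in Hoxd10, and 0 in the other members. Strand handling is not given either, so reads of Hoxd3 and of its antisense neighbours Haglr and Hoxd3os1 cannot be told apart where they overlap.

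Counts of all members were low. The 9 genes summed to 2.36 to 3.56 CPM in parental day 0 libraries, 29.1 to 30.5 CPM at day 2 and 8.83 to 12.7 CPM at day 6. In cKO libraries the sum was 5.57 to 5.90 CPM at day 0, 23.8 to 27.3 CPM at day 2 and 5.10 to 6.67 CPM at day 6. The summed level was thus highest at day 2 in both lines, with no overlap of the libraries. It was higher in cKO at day 0 and lower in cKO at days 2 and 6, again with no overlap. Such a sum weighs members by their levels, and single members did not all go with it. At day 6 the median log2 fold change of cKO over parental was 0.48 among the 7 members tested below. Hoxd10 and Hoxd12 did not pass the filter on low counts and were not tested. The other 7 were tested with edgeR among 18352 genes, and a gene was called where its Benjamini-Hochberg adjusted p was under 0.05. The share of all genes whose groups do not overlap was not counted, so non-overlap is given here and below as a description only.

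**Figure D1:**
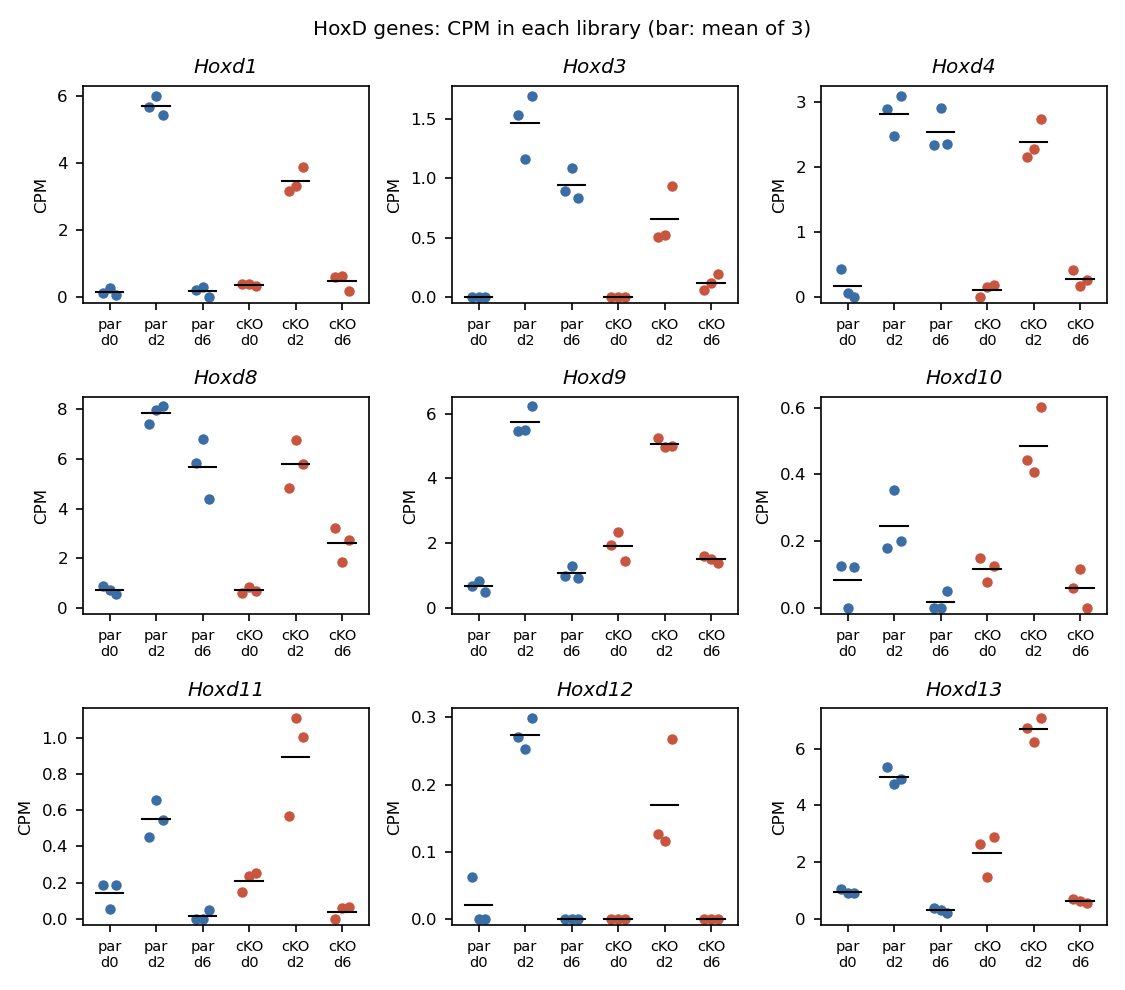
Each panel plots 1 HoxD gene, with CPM on the vertical axis and the 6 groups (par, parental; cKO, Oct1_cKO; d, day) on the horizontal axis; points are libraries and bars are means of 3. The day 2 mean is the highest of its line in every panel, Hoxd4 and Hoxd8 stay high in parental day 6 libraries, and Hoxd9 and Hoxd13 are higher in cKO than in parental libraries at day 0.

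In the parental line, retinoic acid for 2 days went with a rise of anterior, middle and posterior members alike. Hoxd1, the most anterior HoxD gene, read 0.13, 0.28 and 0.06 CPM at day 0 and 5.70, 6.01 and 5.43 CPM at day 2. Its log2 fold change was 5.09 ± 0.33 (SE, adjusted p = 5.6e-17). Hoxd4, a hindbrain gene, went from 0.44, 0.06 and 0 CPM to 2.89, 2.47 and 3.09 CPM. Hoxd3, which patterns the upper neck, had 0 counts in all day 0 libraries and 34, 23 and 34 counts at day 2, which is at least 8.10-fold higher against a floor of 3 counts per library. That floor covers counting error only.

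Middle and posterior members rose over the same 2 days. Hoxd8, a trunk gene, read 0.88, 0.73 and 0.56 CPM at day 0 and 7.42, 7.98 and 8.12 CPM at day 2, a log2 fold change of 3.43 ± 0.22. Hoxd9, known for the spinal cord and forelimb, went from 0.69, 0.84 and 0.50 CPM to 5.47, 5.51 and 6.23 CPM, a log2 fold change of 3.06 ± 0.21. Hoxd13, the gene of digits and genitalia, went from 1.06, 0.90 and 0.93 CPM to 5.34, 4.75 and 4.93 CPM, a log2 fold change of 2.37 ± 0.20. No library of one day overlapped the other day in these genes. All 7 tested members were called higher at day 2, where 43.2% of all tested genes were called higher and 37.7% lower.

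From day 2 to day 6 in the parental line, Hoxd1, Hoxd9 and Hoxd13 fell by 2.40 or more on the log2 scale, and Hoxd3 and Hoxd8 by 0.64 or less. Hoxd1 fell to 0.20, 0.31 and 0 CPM, a log2 fold change of -5.00 ± 0.31 (adjusted p = 1.4e-17). Hoxd13 fell to 0.40, 0.31 and 0.21 CPM, a log2 fold change of -4.00 ± 0.25. Hoxd9 fell to 0.995, 1.30 and 0.94 CPM, a log2 fold change of -2.40 ± 0.18. Their day 6 means were 0.170, 0.306 and 1.08 CPM, against 0.156, 0.964 and 0.676 CPM at day 0.

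Hoxd4 and Hoxd8 behaved otherwise. Hoxd4 read 2.34, 2.91 and 2.35 CPM at day 6, a log2 fold change from day 2 of -0.16 ± 0.21 that was not called (adjusted p = 0.50). Hoxd8 read 5.82, 6.80 and 4.39 CPM, a small called decrease (log2 fold change -0.46 ± 0.14, adjusted p = 0.0026). Hoxd3 had 18, 21 and 16 counts (0.90, 1.09 and 0.84 CPM) at day 6, and its decrease (log2 fold change -0.64 ± 0.27, adjusted p = 0.033) was no longer called with DESeq2 or without any of 4 single libraries (parental day 2 replicate 1 or 3, parental day 6 replicate 1 or 3; adjusted p 0.054 to 0.10). In all, 6 tested members were called lower at day 6 than at day 2, where 36.9% of all tested genes were called lower and 42.6% higher.

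Against day 0, Hoxd3, Hoxd4 and Hoxd8 were higher in the parental day 6 libraries. Hoxd4 was higher by a log2 fold change of 3.92 ± 0.41, Hoxd8 by 2.96 ± 0.23, and Hoxd3 was at least 5.20-fold higher. Hoxd13 was lower, with a log2 fold change of -1.62 ± 0.36 (adjusted p = 0.00011). Hoxd9 was called higher (0.66 ± 0.29, adjusted p = 0.035), a call that 13 of 23 alternative settings lost, among them DESeq2 and the omission of any single parental day 6 library. Hoxd11 was called lower with at most 3 counts in each library, so no fold is given, and the call was lost without any of 4 libraries (parental day 0 replicate 1 or 3, parental day 6 replicate 1 or 2; adjusted p 0.068 to 0.072); Hoxd1 did not pass the test (0.09 ± 0.71). The counts were 4 members higher and 2 lower, where 45.3% and 40.2% of all tested genes were called.

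In the cKO line the same 7 members were called higher at day 2 (41% of all tested genes were called higher and 35.5% lower). Hoxd1 went from 0.38, 0.39 and 0.31 CPM to 3.17, 3.32 and 3.88 CPM, a log2 fold change of 3.24 ± 0.33. Hoxd4 went from 0, 0.16 and 0.19 CPM to 2.15, 2.27 and 2.74 CPM, a log2 fold change of 4.24 ± 0.48. Hoxd8 went from 0.60, 0.86 and 0.69 CPM to 4.82, 6.77 and 5.82 CPM, a log2 fold change of 3.01 ± 0.25. Each gene's day 2 libraries lay above all of its day 0 libraries.

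Hoxd9 and Hoxd13 began higher in cKO and rose less on the log2 scale. Hoxd9 read 1.96, 2.35 and 1.44 CPM at day 0 and 5.26, 4.96 and 5.01 CPM at day 2, a log2 fold change of 1.42 ± 0.18. Hoxd13 read 2.63, 1.49 and 2.89 CPM at day 0 and 6.72, 6.24 and 7.09 CPM at day 2, a log2 fold change of 1.49 ± 0.17. In CPM, Hoxd13 did not rise less. Its mean went from 2.34 to 6.68 CPM in cKO and from 0.964 to 5.01 CPM in parental cells. Hoxd3 had 0 counts at day 0 and 8, 9 and 14 counts at day 2, at least 3.03-fold higher.

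By day 6 all 7 tested members were called lower than at day 2 in cKO, where 41.6% of all tested genes were and 39.6% were called higher. Hoxd4 read 0.42, 0.17 and 0.25 CPM in cKO, a log2 fold change from day 2 of -3.05 ± 0.38 (adjusted p = 2.7e-09). Hoxd8 read 3.22, 1.85 and 2.73 CPM, a log2 fold change of -1.16 ± 0.18 (adjusted p = 3.3e-07). Hoxd3 had 1, 2 and 3 counts. Hoxd1 fell to 0.60, 0.64 and 0.19 CPM, Hoxd9 to 1.61, 1.51 and 1.40 CPM and Hoxd13 to 0.71, 0.64 and 0.57 CPM.

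Compared with cKO day 0, Hoxd8 was still higher at day 6 (log2 fold change 1.85 ± 0.30, adjusted p = 5.6e-07). Hoxd13 was lower (-1.87 ± 0.27, adjusted p = 7.0e-08). Hoxd4 (1.19 ± 0.77), Hoxd9 (-0.32 ± 0.23) and Hoxd1 (0.42 ± 0.51) did not pass the test. Hoxd3 was called higher at counts within the floor in both groups, so no fold is given. Hoxd11 was called lower (9 against 2 counts in all, adjusted p = 0.025), a call lost with DESeq2 and without cKO day 0 replicate 2, cKO day 0 replicate 3 or cKO day 6 replicate 1 (adjusted p 0.053 to 0.097). In all, 2 members were called higher and 2 lower, where 41.4% and 40.4% of all tested genes were.

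**Figure D2:**
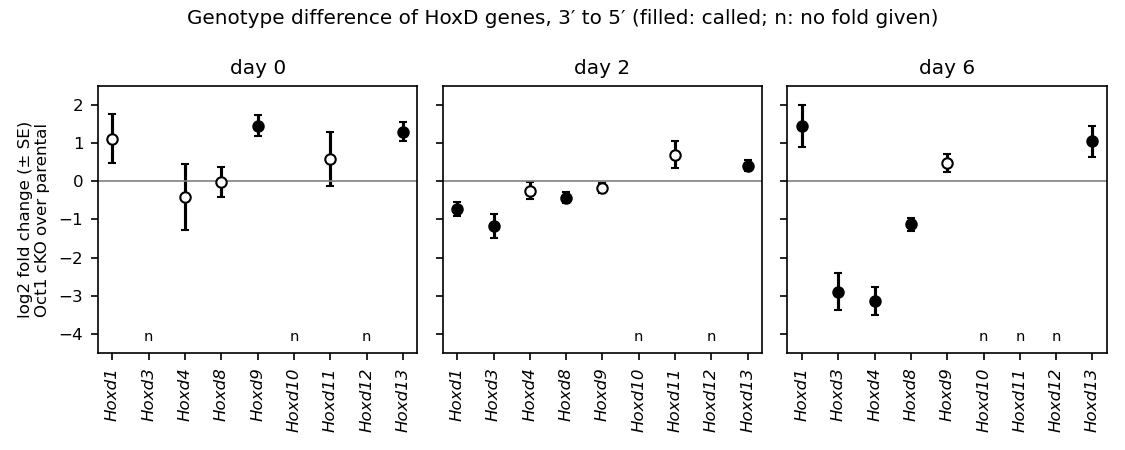
The 3 panels plot the log2 fold change of cKO over parental at days 0, 2 and 6 on the vertical axis, with the SE as error bars, for the HoxD genes in order from Hoxd1 to Hoxd13; filled points were called, and n marks genes with no fold. Hoxd13 lies above 0 on each day (1.30, 0.41 and 1.05), while Hoxd3, Hoxd4 and Hoxd8 lie below 0 at day 6 (-2.89, -3.14 and -1.13).

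Before differentiation, Hoxd9 and Hoxd13 were higher in cKO than in parental cells. Hoxd13 read 2.63, 1.49 and 2.89 CPM in cKO against 1.06, 0.90 and 0.93 CPM in parental libraries, a log2 fold change of 1.30 ± 0.25 (adjusted p = 2.8e-05). Hoxd9 read 1.96, 2.35 and 1.44 CPM against 0.69, 0.84 and 0.50 CPM, a log2 fold change of 1.46 ± 0.27 (adjusted p = 2.1e-05). Without cKO day 0 replicate 3, the library that stood apart, the values were 1.10 (adjusted p = 0.0012) for Hoxd13 and 1.65 (adjusted p = 5.6e-06) for Hoxd9.

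The other members did not pass the test at day 0. Hoxd1 was at 0.31 to 0.39 CPM in cKO and 0.06 to 0.28 CPM in parental libraries, which do not overlap, but at 1 to 5 counts a library its log2 fold change of 1.12 ± 0.65 was not called (adjusted p = 0.15). Hoxd8 differed by -0.01 ± 0.39 and Hoxd4 by -0.41 ± 0.87. Members called were 2 higher and 0 lower, where 26.4% and 27% of all tested genes were called. A share of 2 in 7 is near that background, so the count says nothing particular about the cluster.

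At day 2 Hoxd1, Hoxd3 and Hoxd8 were lower and Hoxd13 higher in cKO. Hoxd1 read 3.17, 3.32 and 3.88 CPM in cKO against 5.70, 6.01 and 5.43 CPM, a log2 fold change of -0.73 ± 0.18 (adjusted p = 0.00042). Hoxd3 read 0.51, 0.52 and 0.94 CPM against 1.54, 1.16 and 1.69 CPM, a log2 fold change of -1.17 ± 0.31 (adjusted p = 0.0013). Hoxd8 read 4.82, 6.77 and 5.82 CPM against 7.42, 7.98 and 8.12 CPM, a log2 fold change of -0.43 ± 0.14 (adjusted p = 0.0083). None of these groups overlapped, but the Hoxd8 call was lost without cKO day 2 replicate 1 (log2 fold change -0.32, adjusted p = 0.078).

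Hoxd13 read 6.72, 6.24 and 7.09 CPM in cKO against 5.34, 4.75 and 4.93 CPM at day 2. Its log2 fold change of 0.41 ± 0.14 (adjusted p = 0.0084) was not called with library sizes alone (0.22, adjusted p = 0.15) or with DESeq2 (0.37, adjusted p = 0.077). Hoxd4 (-0.24 ± 0.22), Hoxd9 (-0.17 ± 0.14) and Hoxd11 (0.70 ± 0.35) were not called, though Hoxd11 was without cKO day 2 replicate 1 (0.93, adjusted p = 0.031). Members called were 1 higher and 3 lower of the 7 tested, where 33.7% and 33.6% of all tested genes were called. With so few members these counts say nothing particular about the cluster. With library sizes alone the split was 0 higher and 4 lower, since Hoxd9 was then called lower (-0.37, adjusted p = 0.018).

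At day 6 Hoxd3, Hoxd4 and Hoxd8 were lower in cKO, and Hoxd1 and Hoxd13, the ends of the cluster, were called higher. Hoxd4 read 0.42, 0.17 and 0.25 CPM in cKO against 2.34, 2.91 and 2.35 CPM, a log2 fold change of -3.14 ± 0.36 (adjusted p = 6.6e-10). Hoxd3 read 0.06, 0.12 and 0.19 CPM against 0.90, 1.09 and 0.84 CPM, a log2 fold change of -2.89 ± 0.49 (adjusted p = 2.9e-06) that rests on 1, 2 and 3 counts in cKO against 16 to 21, so its size is imprecise. Hoxd8 read 3.22, 1.85 and 2.73 CPM against 5.82, 6.80 and 4.39 CPM, a log2 fold change of -1.13 ± 0.18 (adjusted p = 4.3e-07). Each of the 3 separated the lines with no overlap and was called under all 23 alternative settings, although Hoxd3 and Hoxd4 share exon bases and so are not independent.

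The higher genes of day 6 rest on few counts. Hoxd13 read 0.71, 0.64 and 0.57 CPM in cKO against 0.40, 0.31 and 0.21 CPM (9 to 12 against 4 to 8 counts), a log2 fold change of 1.05 ± 0.40 (adjusted p = 0.018). With library sizes alone it was not called (0.84, adjusted p = 0.055), nor without parental day 6 replicate 3 (0.88, adjusted p = 0.068) or without cKO day 6 replicate 1 (0.94, adjusted p = 0.065). Hoxd1 read 0.60, 0.64 and 0.19 CPM against 0.20, 0.31 and 0 CPM, groups that overlap, with a log2 fold change of 1.46 ± 0.55 (adjusted p = 0.017). Its call was lost without parental day 6 replicate 3 (0.94, adjusted p = 0.10), cKO day 6 replicate 1 (1.26, adjusted p = 0.073) or cKO day 6 replicate 2 (1.23, adjusted p = 0.084).

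Hoxd9 did not pass the test at day 6 (0.48 ± 0.24, adjusted p = 0.070), though its groups did not overlap. It was called higher with DESeq2 size factors (0.54, adjusted p = 0.040) and without parental day 6 replicate 2 (0.67, adjusted p = 0.028). Members called were 2 higher and 3 lower, where 36.7% and 37.8% of all tested genes were. Library sizes alone gave 1 higher and 3 lower.

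Whether the change over time differed between the lines was tested as an interaction. From day 0 to day 2, Hoxd1 (-1.85 ± 0.67, adjusted p = 0.019), Hoxd9 (-1.63 ± 0.31, adjusted p = 1.8e-05) and Hoxd13 (-0.89 ± 0.28, adjusted p = 0.0078) rose less on the log2 scale in cKO than in parental cells. Of all tested genes, 26.9% had a lower and 30.1% a higher change. The Hoxd1 call was lost without parental day 0 replicate 3 (-1.49, adjusted p = 0.071), and the Hoxd13 call without cKO day 0 replicate 3, the library that stood apart (-0.70, adjusted p = 0.057). Hoxd4 (0.17 ± 0.84), Hoxd8 (-0.41 ± 0.42) and Hoxd11 (0.12 ± 0.97) showed no called difference in their change. For Hoxd3 no estimate from day 0 can be had, because it had 0 counts in all 6 day 0 libraries.

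From day 2 to day 6, Hoxd4 (-2.89 ± 0.45, adjusted p = 5.7e-07), Hoxd3 (-1.72 ± 0.63, adjusted p = 0.018) and Hoxd8 (-0.70 ± 0.23, adjusted p = 0.0080) fell more in cKO. Hoxd1 (2.18 ± 0.58, adjusted p = 0.0011) and Hoxd9 (0.66 ± 0.28, adjusted p = 0.037) fell less. The shares over all tested genes were 31.5% higher and 32% lower. The calls of Hoxd1 and Hoxd4 held under all 23 alternative settings. Both rest on few counts at day 6, with 0 to 6 for Hoxd1 in parental and 3 to 7 for Hoxd4 in cKO libraries. The Hoxd3 call was lost with DESeq2 and without cKO day 2 replicate 3, cKO day 6 replicate 1 or cKO day 6 replicate 2 (adjusted p 0.054 to 0.074). The Hoxd8 call was lost with DESeq2 (adjusted p = 0.072), without parental day 6 replicate 2 (-0.50, adjusted p = 0.072) and without cKO day 6 replicate 2 (-0.44, adjusted p = 0.11). The Hoxd9 call was lost without cKO day 2 replicate 2 or 3, cKO day 6 replicate 1 or parental day 6 replicate 1 or 3 (adjusted p 0.056 to 0.093).

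From day 0 to day 6, Hoxd4 (-2.73 ± 1.11, adjusted p = 0.031), Hoxd8 (-1.11 ± 0.44, adjusted p = 0.027) and Hoxd9 (-0.98 ± 0.37, adjusted p = 0.020) ended lower relative to their start in cKO than in parental cells, where 31.9% of all tested genes had a lower and 32% a higher change. None of the 3 calls remained without parental day 0 replicate 3 (adjusted p 0.068 to 0.074) or without cKO day 0 replicate 2 (adjusted p 0.070 to 0.10). Without parental day 6 replicate 2, Hoxd8 and Hoxd9 were not called (adjusted p 0.055 and 0.074), and without cKO day 6 replicate 2, Hoxd4 and Hoxd8 were not (adjusted p 0.057 and 0.070). Hoxd4 was also not called without parental day 0 replicate 2 (-2.33, adjusted p = 0.068). Without the library that stood apart, Hoxd4 was not called (-2.16, adjusted p = 0.22) while Hoxd8 (-1.16, adjusted p = 0.039) and Hoxd9 (-1.19, adjusted p = 0.0069) were. The comparisons from day 0 and from day 2 share libraries, so their values are not separate evidence.

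Hoxd10, Hoxd11 and Hoxd12, posterior genes of the limb and lower trunk, were near the limit of detection. Hoxd11 had 3, 1 and 3 counts at parental day 0, 10, 13 and 11 counts at day 2 and 0, 0 and 1 count at day 6. In cKO it had 2, 3 and 4 counts at day 0, 9, 19 and 15 counts at day 2 and 0, 1 and 1 count at day 6. Day 2 was its highest point in both lines (log2 fold change over day 0 of 1.91 ± 0.53 in parental and 2.03 ± 0.48 in cKO). Scaled to library size, Hoxd11 at day 2 was 32.1-fold (95% counting interval 5.38 to 1304) its day 6 level in parental and 22.4-fold (5.82 to 191) in cKO cells.

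Hoxd10 had 2, 0 and 2 counts at parental day 0, 4, 7 and 4 counts at day 2 and 0, 0 and 1 count at day 6, with 2, 1 and 2, then 7, 7 and 9, then 1, 2 and 0 counts in cKO. At day 2 it was 14.2-fold (2.18 to 596) its day 6 level in parental and 7.97-fold (2.41 to 41.5) in cKO cells. Its cKO day 2 libraries (0.41 to 0.60 CPM) lay above the parental day 2 libraries (0.18 to 0.35 CPM), but with no filter on low counts the log2 fold change of 0.95 ± 0.53 was not called (adjusted p = 0.12). Hoxd12 had 1, 0 and 0 counts at parental day 0, 6, 5 and 6 counts at day 2 and 0 at day 6, and 0, then 2, 2 and 4, then 0 counts in cKO. Its parental day 2 level was 13.7-fold (2.14 to 572) that of day 0.

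**Figure D3:**
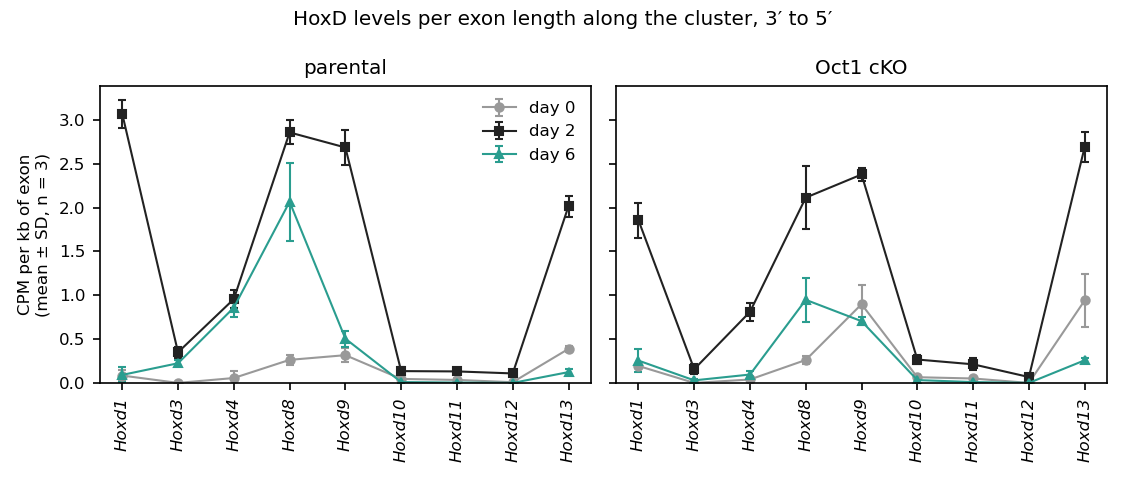
Levels per exon length (CPM per kb, vertical axis; mean with SD of 3 libraries as error bars) are plotted along the cluster from Hoxd1 to Hoxd13 for parental (left) and cKO cells (right), with 1 line per day. At day 2 Hoxd1, Hoxd8, Hoxd9 and Hoxd13 are the high points in both lines, and at day 6 Hoxd8 is (2.07 in parental, 0.95 in cKO).

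Levels can be set against each other across genes only per exon length. At parental day 0 Hoxd13 was highest at 0.388 ± 0.035 CPM per kb (SD, n = 3), next to Hoxd9 at 0.316 ± 0.082 and Hoxd8 at 0.263 ± 0.058, and the libraries of neighbours in this order overlap. At parental day 2 the order was Hoxd1 (3.07 ± 0.16), Hoxd8 (2.86 ± 0.14), Hoxd9 (2.68 ± 0.20) and Hoxd13 (2.02 ± 0.12), in which the first 3 overlap with their neighbours and Hoxd13 lies under them. Hoxd4 followed at 0.956 ± 0.107, Hoxd3 at 0.349 ± 0.065, and Hoxd10, Hoxd11 and Hoxd12 at 0.135 or less. At parental day 6 Hoxd8 stood alone at 2.07 ± 0.44, above Hoxd4 (0.859 ± 0.110) and Hoxd9 (0.505 ± 0.090).

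In cKO cells the leading genes had the same order at day 0, and another order at day 2 and, below Hoxd8, at day 6. At day 0 Hoxd13 (0.941 ± 0.299) and Hoxd9 (0.898 ± 0.214) led and overlapped, with Hoxd8 at 0.262 ± 0.048. At day 2 Hoxd13 was highest at 2.69 ± 0.17, above Hoxd9 (2.38 ± 0.08), Hoxd8 (2.11 ± 0.36) and Hoxd1 (1.86 ± 0.20), each of which overlaps with the next. At day 6 Hoxd8 (0.948 ± 0.252) led Hoxd9 (0.704 ± 0.049), with overlap, and Hoxd13 (0.258 ± 0.029), Hoxd1 (0.255 ± 0.132) and Hoxd4 (0.096 ± 0.042) followed. Exon sets that share bases (Hoxd3, Hoxd4) make the per-length levels of those genes uncertain.

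**Figure D4:**
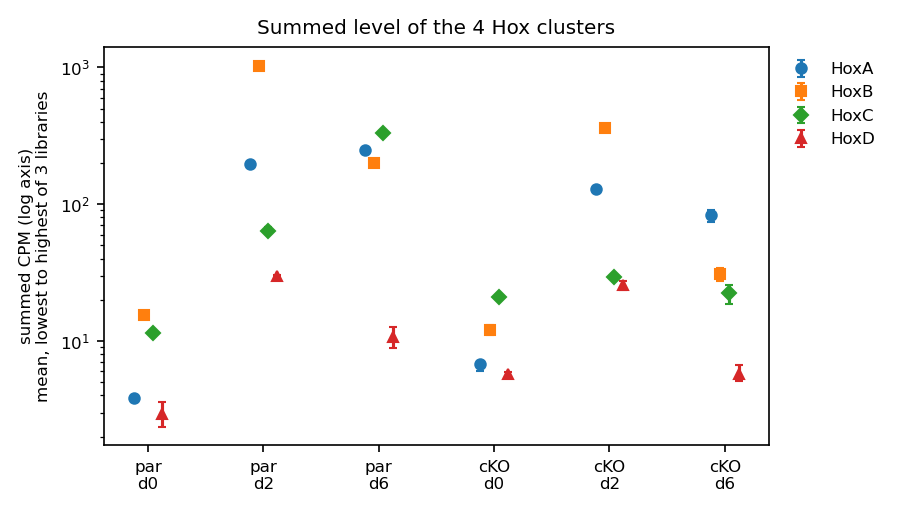
Summed CPM of the genes of the HoxA (11 genes), HoxB (10), HoxC (9) and HoxD (9) clusters is plotted on a log axis for the 6 groups; points are means of 3 libraries and bars run from the lowest to the highest library. In cKO every cluster peaks at day 2. In parental cells HoxB and HoxD peak at day 2, while HoxA and HoxC are highest at day 6 (HoxC 324 to 336 CPM). Sums are not divided by exon length, so heights are read within a cluster only.

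The other Hox clusters also differed between the lines, in sums that are not divided by exon length and so are read within a cluster. At parental day 2 HoxA summed to 191 to 198 CPM, HoxB to 1006 to 1038 CPM and HoxC to 61.1 to 68.2 CPM. In cKO day 2 libraries the sums were 123 to 136, 346 to 377 and 28.5 to 29.9 CPM, with HoxD at 23.8 to 27.3 CPM. At day 6 the parental sums were 234 to 259 (HoxA), 196 to 205 (HoxB) and 324 to 336 CPM (HoxC), and the cKO sums 74.4 to 89.9, 27.6 to 34.0 and 18.5 to 25.7 CPM.

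The members can be set beside their paralogues, the genes of the same number in the other clusters. Group 4 went one way at day 6, with log2 fold changes of cKO over parental of -3.14 for Hoxd4, -2.84 ± 0.11 for Hoxa4, -1.45 ± 0.09 for Hoxb4 and -3.25 ± 0.09 for Hoxc4. In group 3, Hoxa3 (-1.91 ± 0.09) and Hoxb3 (-3.73 ± 0.09) were called lower at day 6, as was Hoxd3 (-2.89). In group 8, Hoxb8 (-4.05 ± 0.22) and Hoxc8 (-4.61 ± 0.10) were called lower with Hoxd8 (-1.13). The differences between paralogues were not tested.

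Groups 1, 9 and 13 showed more than one pattern. Hoxb1, like Hoxd1, was called lower in cKO at day 2 (-1.96 ± 0.05) and higher at day 6 (0.89 ± 0.21). At day 6 Hoxa9 (-2.72 ± 0.23), Hoxb9 (-2.37 ± 0.17) and Hoxc9 (-3.71 ± 0.13) were called lower, while Hoxd9 was not called (0.48). Hoxc13, like Hoxd13, was called higher in cKO on each day (1.10 ± 0.13, 1.02 ± 0.16 and 1.13 ± 0.27). Hoxb13 was called lower at day 2 (-0.94 ± 0.14) and day 6 (-1.53 ± 0.17), and Hoxa13 was not called on any day.

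All counts of genes called in a list are to be read against the shares over all tested genes, which at days 0, 2 and 6 were 26.4%, 33.7% and 36.7% called higher in cKO and 27%, 33.6% and 37.8% called lower. The day 6 comparison called 8 of 10 tested HoxA genes lower and 1 higher, 9 of 10 HoxB genes lower and 1 higher, and 6 of 8 HoxC genes lower and 1 higher. Their median log2 fold changes were -2.78, -2.63 and -3.48, against 0 over all tested genes. At day 2 the counts were 7 lower and 1 higher of 10 (HoxA), 10 lower of 10 (HoxB) and 5 lower and 2 higher of 8 (HoxC). At day 0 they were 2 higher (HoxA), 1 lower (HoxB) and 3 higher (HoxC).

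Genes around the cluster did not move as a block. Haglr, a long noncoding RNA that starts beside Hoxd1 on the other strand, read 0.13, 0.06 and 0.06 CPM at parental day 0, 3.71, 2.88 and 3.54 CPM at day 2 and 0.65, 0.67 and 0.73 CPM at day 6. In cKO it read 0, 0.31 and 0.06 CPM, then 1.27, 1.57 and 1.54 CPM, then 0.24, 0 and 0.13 CPM. It was lower in cKO at day 2 (-1.21 ± 0.23, adjusted p = 1.9e-05) and day 6 (-2.44 ± 0.55, adjusted p = 0.00015), and its groups did not overlap on either day. The day 6 value rests on 4, 0 and 2 counts in cKO against 13, 13 and 14 in parental libraries, so its size is imprecise. Hoxd3os1, the antisense gene at Hoxd3, was called lower in cKO at day 6 (-1.51 ± 0.50, adjusted p = 0.0063) and was not called at days 0 and 2.

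Lnpk and Mtx2 flank the cluster. Lnpk, on the Hoxd13 side, read 41.9 to 45.7 CPM at parental day 0 and 27.4 to 30.4 CPM at cKO day 0 (log2 fold change -0.61 ± 0.07), and was called higher in cKO at day 2 (0.45 ± 0.06) and day 6 (0.66 ± 0.07). Mtx2, on the Hoxd1 side, was not called at day 0, was higher in cKO at day 2 (0.39 ± 0.06) and lower at day 6 (-0.36 ± 0.06). Of the 9 neighbours tested, 2, 6 and 4 were called higher and 2, 2 and 5 lower at days 0, 2 and 6. At day 0 these counts are near the shares over all tested genes (26.4% higher and 27% lower), so they say nothing particular about the neighbours. The neighbour Evx2 was not analysed here.

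Lists of factors that act on Hox genes or with Hox proteins held genes called in both directions, beside 26.4%, 33.7% and 36.7% of all tested genes called higher and 27%, 33.6% and 37.8% called lower at days 0, 2 and 6. Of 9 cofactor genes of the Meis, Pbx and Prep families, 6 were called higher in cKO at day 0, and 5 and 6 were called lower at days 2 and 6 (1 and 2 higher). Meis2 was among those lower at day 6 (-3.33 ± 0.07). Of 15 tested genes of the retinoid pathway, 5 were called higher and 4 lower at day 0, 3 higher and 10 lower at day 2, and 2 higher and 11 lower at day 6. Crabp2, a retinoic acid carrier, read 131 to 141 CPM in parental and 10.2 to 12.2 CPM in cKO libraries at day 2, and Dhrs3, a retinal reductase, was lower in cKO at day 6 (-2.76 ± 0.05).

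Of 7 genes of caudal patterning, 3, 2 and 2 were called higher and 0, 2 and 1 lower at days 0, 2 and 6. Cdx1, a caudal homeobox gene known to activate Hox genes, was higher in cKO at day 0 (1.64 ± 0.09), day 2 (0.44 ± 0.09) and day 6 (3.79 ± 0.39, with 2 or 3 counts in each parental library). Of 20 Polycomb genes, 6, 11 and 9 were called higher and 7, 6 and 9 lower, and at day 0 these are near the 26.4% and 27% of all tested genes. Suz12, a core subunit of the complex that methylates histone H3 at lysine 27, was lower in cKO at day 0 (-1.08 log2 fold change), and Cbx2 was lower at day 2 (-1.63) and day 6 (-1.83). Of 8 Trithorax and demethylase genes, 4, 5 and 6 were called higher and 4, 2 and 1 lower.

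Marker genes of other cell types moved with the same comparisons. Pluripotency markers summed to 347 to 363 CPM in parental and 1093 to 1160 CPM in cKO libraries at day 2, and to 47.1 to 52.4 and 150 to 159 CPM at day 6. Of the 8, 3, 8 and 6 were called higher in cKO at days 0, 2 and 6 (0, 0 and 1 lower), and Pou5f1 read 0.15 to 0.47 CPM in parental and 30.4 to 31.6 CPM in cKO libraries at day 6. Of 10 fibroblast markers, 8, 6 and 7 were called lower (0, 2 and 1 higher), and at day 6 they summed to 4028 to 4328 CPM in parental and 496 to 597 CPM in cKO libraries. All listed markers of both kinds had counts in every group.

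Mesoderm markers summed to 75.3 to 84.0 CPM in parental and 19.5 to 21.8 CPM in cKO libraries at day 2, and to 271 to 298 and 113 to 133 CPM at day 6. Of the 9 tested, 1, 0 and 3 were called higher and 2, 7 and 4 lower at days 0, 2 and 6. Neural progenitor markers summed at day 6 to 147 to 171 CPM in parental and 30.4 to 34.3 CPM in cKO libraries, where Sox1 and Olig2 were at 0, and 2, 1 and 0 of 7 were called higher and 2, 6 and 3 lower. Neuron markers summed at day 6 to 209 to 215 and 32.8 to 39.4 CPM, with 2, 3 and 2 of 6 called higher and 2, 1 and 4 lower. Extraembryonic endoderm markers summed at day 6 to 470 to 508 and 456 to 481 CPM, with 0, 2 and 6 of 8 called higher and 2, 3 and 2 lower; Ttr was at 0 at day 0 in both lines and Apoa1 in cKO. The part of these marker differences in the HoxD values was not tested.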

How the data were processed

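The authors deposited raw read counts, 1 whole number per gene and library, for 21995 genes in 18 libraries. Novoalign, DESeq2 1.10.0 and the builds mm10 and GRCm38 are named, without their roles, per the submitters' processing notes. For the read counter, the annotation, strand and shared reads, the method is not given in the sources used here. Libraries were grouped by genotype and day labels.

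Counts were tested with the quasi-likelihood test of edgeR 4.0.16 (limma 3.58.1, R 4.3.3) in 1 fit of 18 libraries with TMM factors, after filterByExpr (minimum count 10, minimum total 15), which kept 18352 genes. The 12 comparisons were the lines at each day, the days in each line and their interactions, each adjusted by Benjamini-Hochberg over all genes tested. The script was tested on simulated data. Alternatives were DESeq2 1.42.0, its size factors in edgeR, library sizes alone, no filter, only the groups compared, and leaving out each library. Totals of 13694126 to 19296966 limit the precision of genes with few counts. Count ratios of the rarest genes carry exact 95% intervals, which cover counting error only.

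All 9 HoxD genes are named by rule. From the 15 other lists (HoxA, HoxB, HoxC, neighbours, cofactors, Polycomb, Trithorax and demethylases, retinoid pathway, caudal inputs and markers of 6 cell types), at most 4 genes with the smallest adjusted p are named per comparison, besides paralogues and flanking genes; Pou2f1 checks the labels. Some genes of these lists are not reported here by name. The members and lists were chosen with earlier results of these data known.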

Additional observations from a re-analysis of the deposited data

Results flagged for a closer look

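The results of this kind are changes over time that differed between the lines by the test of the difference itself (edgeR, cKO minus parental, log2 scale). From day 0 to day 2 these were Hoxd1 (-1.85, adjusted p = 0.019), Hoxd9 (-1.63, adjusted p = 1.8e-05) and Hoxd13 (-0.89, adjusted p = 0.0078), which rose less on that scale in cKO. From day 0 to day 6 they were Hoxd4 (-2.73, adjusted p = 0.031), Hoxd8 (-1.11, adjusted p = 0.027) and Hoxd9 (-0.98, adjusted p = 0.020), where Hoxd9 was higher in cKO at the start. From day 2 to day 6 they were Hoxd1 (2.18, adjusted p = 0.0011), Hoxd3 (-1.72, adjusted p = 0.018), Hoxd4 (-2.89, adjusted p = 5.7e-07), Hoxd8 (-0.70, adjusted p = 0.0080) and Hoxd9 (0.66, adjusted p = 0.037). The Hoxd4 value rests on 2.34 to 2.91 CPM in parental against 0.17 to 0.42 CPM in cKO libraries at day 6, after 2.47 to 3.09 and 2.15 to 2.74 CPM at day 2.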

How the results depend on the processing

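Of 84 results of single HoxD genes (7 genes in 12 comparisons), 65 kept their outcome under all of the 23 alternatives that could be run for them. The other 19 did not, and none reversed. An outcome is called or not called, so the 65 include results that were never called. Among the called genotype differences in change over time, only Hoxd9 (day 0 to day 2), Hoxd1 and Hoxd4 (both day 2 to day 6) kept their call under all 23. A fit of only the groups compared, in which fewer genes were tested, called 3 members instead of 5 in cKO against parental at day 6 and 2 instead of 4 in cKO day 6 against day 0. DESeq2 called 3 instead of 5 for the genotype difference from day 2 to day 6; the cause was not tested. Leaving out 1 library at a time gave 3 to 6 members for cKO against parental at day 6 (3 without parental day 6 replicate 3 or cKO day 6 replicate 1). It gave 0 to 3 for the genotype difference from day 0 to day 6 (0 without parental day 0 replicate 3 or cKO day 0 replicate 2, 1 without parental or cKO day 6 replicate 2). It gave 3 to 5 for that from day 2 to day 6 (3 without cKO day 2 replicate 3, cKO day 6 replicate 1 or cKO day 6 replicate 2). Library sizes alone gave a median log2 fold change over all genes of -0.20 at day 2 and -0.19 at day 6 in cKO against parental, where TMM gave -0.01 and 0. The split of genes called higher and lower moved with it from 6187 and 6172 to 4263 and 8187 at day 2, and from 6740 and 6940 to 5241 and 8414 at day 6. It moved from 7924 and 6913 to 10130 and 4589 in parental day 2 against day 0, and from 5526 and 4937 to 4094 and 6317 for the genotype difference from day 0 to day 2. Depth limits Hoxd1, Hoxd3, Hoxd10, Hoxd11 and Hoxd12, which had 10 counts or fewer in most libraries. Hoxd4 had at most 7 counts in each day 0 library and each cKO day 6 library. No paired analysis was possible because the labels carry no replicate numbers that link libraries across groups.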

Other observations

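Over the 18 libraries, the tested members fell into patterns that follow their place in the cluster only in part. The log2 CPM of Hoxd3, Hoxd4 and Hoxd8 ran together (Pearson r 0.94 to 0.95 for the 3 pairs), as did Hoxd11 and Hoxd13 (0.93), and Hoxd1 ran with Hoxd9 (0.95) although Hoxd3, Hoxd4 and Hoxd8 lie between them. Hoxd13 correlated least with Hoxd8 (0.24), Hoxd3 (0.25) and Hoxd4 (0.28). The libraries share 6 groups, so these values describe differences between groups, and Hoxd3 and Hoxd4 also share exons.

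Likeness was ranked over the 14253 genes whose log2 CPM averaged 0 or more. The genes outside the cluster whose log2 CPM ran closest with Hoxd8 were Hoxb2 (r = 0.98), Pmp22 (0.98) and Gm15050 (0.98). For Hoxd3 they were Purg (0.98), Tmem246 (0.97) and Hoxb5 (0.97), and for Hoxd4 Hist3h2a (0.97), Rasl12 (0.96) and Lca5 (0.96). Hoxd1 ran closest with Plvap (0.96), Halr1 (0.96) and Sema6b (0.95). Hoxd9 was closest to Lpin1 (0.98), 0610040J01Rik (0.96) and Halr1 (0.96), Hoxd11 to Gm44693 (0.97), Casq1 (0.96) and Slc38a5 (0.96), and Hoxd13 to Gm48931 (0.99), Gm21542 (0.99) and Colgalt2 (0.99).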
